A study of Homo sapiens with 60 samples.

Results

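The interferon-stimulated and MHC class I genes described here are 43 genes out of the 60675 in the count table, chosen by name: each is the row whose Ensembl identifier maps to 1 of the listed symbols. All 43 were found, and 41 passed a filter on low counts, IFITM1 and SAMD9L being the exceptions. They were measured by RNA-seq of mRNA in HT29, an established human colorectal adenocarcinoma line, after 24 h with an herbal extract made in ethanol, or with DMSO. The labels name no added interferon, so the values describe the level that the line keeps in culture and its change under plant extracts. The extracts were the herbs Aucklandiae Radix (14.8, 74 and 370 µg/mL) and Polygalae Radix (15.2, 76 and 380 µg/mL), with 2 libraries per dose, and Menthae Herba and Saposhnikoviae Radix (20, 100 and 500 µg/mL), with 3 per dose. The formulas, which are mixtures of herbs, were Guibi-tang and Saengmaek-san with 3 libraries per dose, Soyo-san with 2 and Okbyeongpung-san with 1, all at 20, 100 and 500 µg/mL. The vehicle group has 3 libraries, labelled 0.1% DMSO on the samples and 2% in the series' design text. The high dose was the IC20 where that was below 500 µg/mL, and the medium and low doses were dilutions of it. Whether replicates came from separate cultures is not stated on the labels; p-values therefore reflect library-to-library spread that may be only technical.

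Interferons bind receptors on the cell surface, and kinases of the JAK family then phosphorylate STAT proteins such as STAT2. With IRF9, these form a complex that binds the interferon-stimulated response element (ISRE) in promoters and raises antiviral genes such as the IFIT, OAS and MX families. MHC class I molecules carry peptides to the cell surface for inspection by T cells. Their heavy chains (HLA genes) pair with B2M, and the TAP1 and TAP2 pump brings the peptides into the endoplasmic reticulum. Gut epithelium keeps a basal level of both gene groups without infection.

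Total counts per library ranged from 17079218 to 36796397. Saposhnikoviae Radix low replicate 2 did not resemble its group: its best within-group correlation was 0.848 (the other libraries with a partner reached at least 0.996), and its mitochondrial share was 3.33%, against 6.19% to 12.3% elsewhere. It is left out of all results below except where named. The 3 Okbyeongpung-san libraries have no replicate and enter no test. Each extract has a set number in its library names (Aucklandiae Radix and Polygalae Radix share one, as do Menthae Herba and Saposhnikoviae Radix, Guibi-tang and Saengmaek-san, and Soyo-san and Okbyeongpung-san), and the vehicle libraries have a prefix of their own. An extract effect and a difference between sets therefore cannot be told apart in comparisons with the vehicle, whereas high against low dose stays within a set. Of 12 colorectal epithelium markers 11 averaged at least 1 CPM (library-size-scaled counts, with TMM factors), with summed levels of 7690 to 15398 CPM. Of 8 blood cell markers 3 did, and the MHC class II gene HLA-DRA was at 0 in every library; of 9 fibroblast and endothelium markers 2 did.

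Promoters of the members were searched for elements of the interferon response. The members were chosen by name as interferon-stimulated or MHC class I genes. A share of matches above that of all genes may therefore follow from the choice. RefSeq promoters, from 250 bases before to 50 bases after an annotated start (GRCh38.p14), were at hand for 36 of the 43 genes, in 46 windows. The core of the ISRE, searched on both strands as GAAA, any 2 bases and GAAA again, with overlapping matches kept, was present in 28 of these 46 windows (60.9%), against 1255 of 35116 windows of all genes (3.57%). Per gene, 24 of 36 members had a match, against 4.38% of all 27305 genes with a window. TTCNNNGAA, the core of the gamma-activated site, reads the same on both strands. It was in 12 of the 46 windows (26.1%), against 7.66% of the 35116 windows. By role, the ISRE core was found for 7 of 8 IFIT and IFI genes, 5 of 7 antiviral enzymes, 2 of 4 genes of the ISG15 system, 1 of 4 transcription factors and sensors, 3 of 5 PARP and nuclear factor genes, 3 of 3 membrane restriction factors and 3 of 5 MHC class I genes. The windows of IFI35, OAS1, SAMD9L, UBE2L6, HERC6, STAT2, IRF1, IRF9, SP100, XAF1, HLA-B and HLA-C held no match to the ISRE core. IFIT2, OAS2, OASL, USP18, IRF7, IFITM2 and HLA-E had no window. A match is a description of the letters and not a measured binding site.

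The stretches below show the ISRE core in 9 members, chosen among those with a match. HERC6, OAS1 and IRF9, which were called lower with several extracts, held none. IFIT1, IFI27 and DDX60 were also lower with several extracts, but IFIT1 and DDX60 were called higher with Aucklandiae Radix. IFIT1 was called higher with Polygalae Radix too. ISG20 rose and IFITM3 fell with Aucklandiae Radix. The other stretches are from the ISG15 gene and the PARP and MHC class I genes PARP14, TAP1 and B2M. Each stretch runs 5′ to 3′ on the gene's own strand. It spans 30 bases before the first match to 30 bases after the last, with the matches in capitals.
IFIT1, chr10:89392477-89392559, plus strand: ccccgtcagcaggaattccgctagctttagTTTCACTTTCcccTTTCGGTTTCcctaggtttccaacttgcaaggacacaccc
IFI27, chr14:94110598-94110680, plus strand: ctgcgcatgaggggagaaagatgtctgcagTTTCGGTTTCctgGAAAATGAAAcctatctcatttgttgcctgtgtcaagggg
DDX60, chr4:168318766-168318870, minus strand: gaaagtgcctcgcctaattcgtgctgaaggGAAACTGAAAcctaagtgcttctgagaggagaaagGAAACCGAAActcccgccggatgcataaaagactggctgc
ISG20, chr15:88638917-88638986, plus strand: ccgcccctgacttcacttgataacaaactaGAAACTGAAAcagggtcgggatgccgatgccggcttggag
IFITM3, chr11:320856-320942, minus strand: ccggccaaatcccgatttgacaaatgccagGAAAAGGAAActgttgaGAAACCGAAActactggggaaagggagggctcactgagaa
ISG15, chr1:1013354-1013429, plus strand: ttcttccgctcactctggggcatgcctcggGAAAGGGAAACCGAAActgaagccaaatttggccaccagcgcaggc
PARP14, chr3:122680780-122680849, plus strand: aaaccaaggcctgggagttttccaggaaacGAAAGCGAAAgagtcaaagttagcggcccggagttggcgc
TAP1, chr6:32853793-32853868, minus strand: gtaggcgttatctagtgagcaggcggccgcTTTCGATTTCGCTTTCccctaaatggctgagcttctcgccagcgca
B2M, chr15:44711343-44711418, plus strand: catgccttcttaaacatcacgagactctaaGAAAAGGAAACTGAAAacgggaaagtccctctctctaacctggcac
In ISG15, TAP1 and B2M the 2 matches overlap into a single run, whereas in IFIT1, IFI27, DDX60 and IFITM3 they stand apart.

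Several members lie side by side in the genome (GENCODE 29, GRCh38). IFIT2, IFIT3, IFIT1 and IFIT5 fill chromosome 10 from 89283694 to 89421001, and OAS1, OAS3 and OAS2 fill chromosome 12 from 112906777 to 113011723. the annotated starts of PARP9 and DTX3L, on opposite strands of chromosome 3, overlap, and IFITM1, IFITM2 and IFITM3 lie within chromosome 11 from 307631 to 327537, where the annotated span of IFITM2 contains IFITM1. The annotated span of HLA-B overlaps that of HLA-C on chromosome 6. Reads of the HLA, IFITM, IFIT and OAS families can be divided among close copies by the authors' counting, and HLA alleles can differ from the reference, so values of single members of these families are uncertain to that extent.

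In vehicle libraries the members covered a wide range of levels. Per kilobase of annotated exon, B2M was highest, with 49.7 CPM per kb, followed by BST2, a membrane tether that holds budding viruses (34.9 CPM per kb), the ubiquitin-like protein ISG15 (21.2), HLA-E (19.9), IFITM2 (18.6) and HLA-C (18.1). Not scaled by length, B2M had 261, 308 and 337 CPM in the 3 vehicle libraries. The classical response genes were low: IFIT1 had 0.727 CPM per kb, DDX60 0.504, MX1 0.429 and ISG20 0.383. HERC5, IFITM1, UBE2L6, IFI44L, XAF1 and SAMD9L averaged under 1 CPM in vehicle libraries, and their fold changes rest on few reads. Of the 43 members, 37 had a median over libraries of at least 1 CPM.

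**Figure D1:**
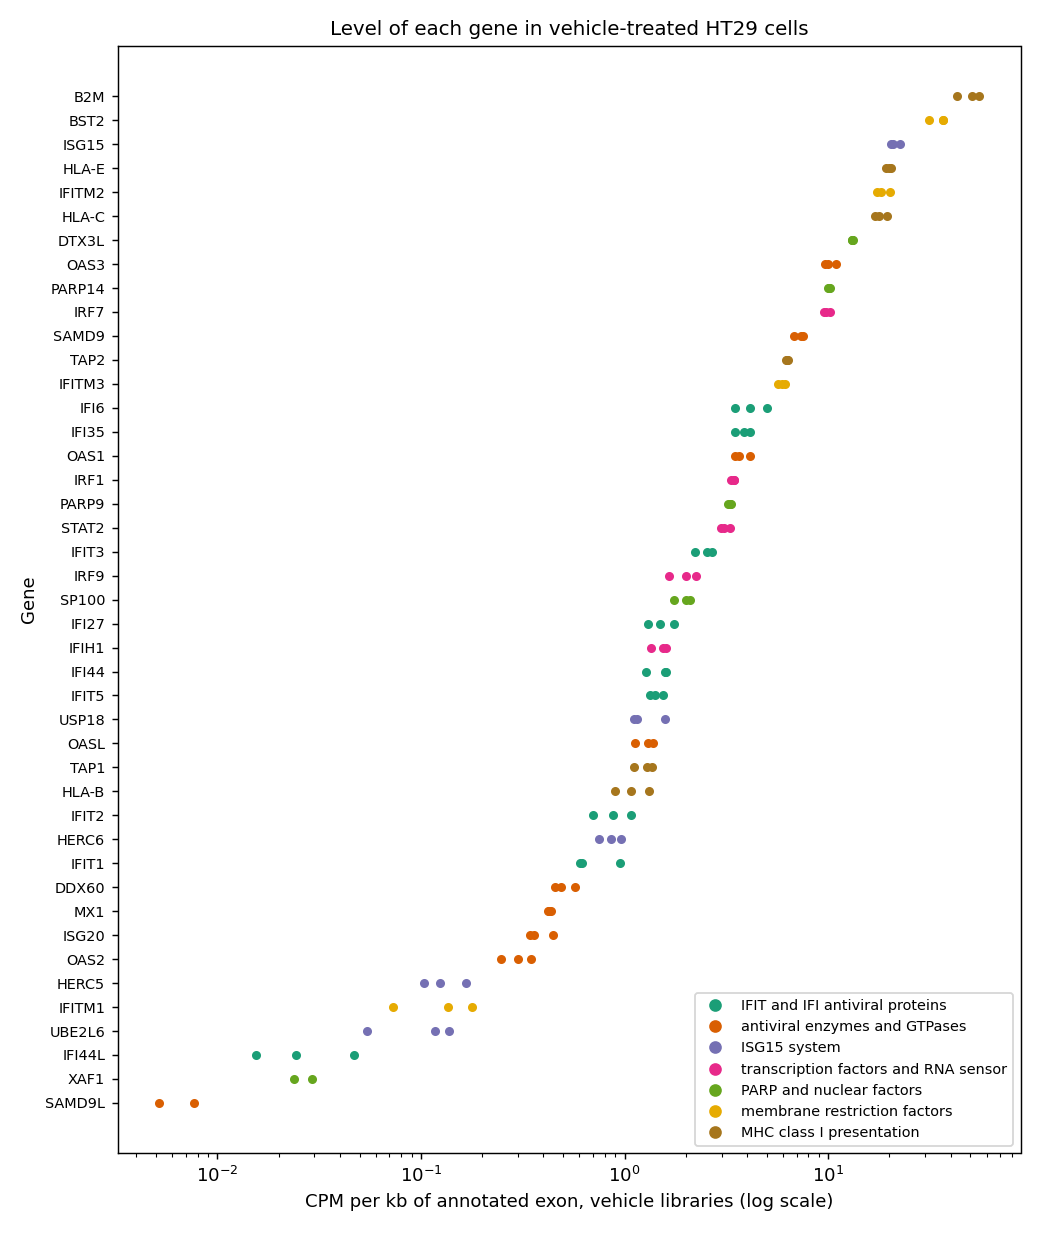
Each point is 1 of the 3 vehicle libraries; the x axis gives CPM per kb of annotated exon on a log scale, and colours mark the role of the gene. B2M, BST2 and ISG15 lead at 49.7, 34.9 and 21.2 CPM per kb on average, and libraries at 0 are not drawn.

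At the high dose against the low dose of the same extract, the members did not move as 1 block. A gene was called when its adjusted p was below 0.05 in edgeR's quasi-likelihood test with Benjamini-Hochberg adjustment over 16978 genes. With Aucklandiae Radix 16 members were higher and 13 lower, that is 70.7% of the 41 tested, against 58.7% of all genes. With Polygalae Radix 7 were higher and 6 lower (31.7%, against 29.4% of all genes), a share near the background. With Menthae Herba none was higher and 17 were lower, where 11.6% of all genes were called lower and 23.5% in either direction. With Guibi-tang 3 were higher and 19 lower, where 9.08% of all genes were called lower and 17.9% in either direction. With Soyo-san none was higher and 10 were lower, where 1.38% of all genes were called lower and 2.49% in either direction. With Saposhnikoviae Radix and Saengmaek-san no member was called by edgeR, where 0.289% and 0.854% of all genes were. DESeq2 called none either, and 12 and 6 members had an unadjusted p under 0.05. No share of all genes at that unadjusted threshold stands beside these 2 counts, so they are not read as changes of the members. The median log2 change over the 41 members was 0.04 with Aucklandiae Radix, -0.10 with Polygalae Radix, -0.26 with Menthae Herba, -0.28 with Guibi-tang and -0.29 with Soyo-san, while the median over all genes lay between -0.02 and 0 in each.

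These counts depend on single libraries to different degrees. The Aucklandiae Radix count was 27 to 29 and the Menthae Herba count 13 to 17 when each of their libraries was left out in turn. Guibi-tang had 14 called members without low replicate 1 and 14 without high replicate 3. Polygalae Radix had 6 without low replicate 2, 7 without high replicate 3 and 8 without low replicate 3. Soyo-san had 0 without high replicate 1, 1 without low replicate 2, 3 without high replicate 2 and 4 without low replicate 1, so its 10 calls rest on all 4 libraries. With the outlying library kept in the fit, Aucklandiae Radix had 22 called members, Menthae Herba 5, Guibi-tang 6, Polygalae Radix 3 and Soyo-san 0.

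**Figure D2:**
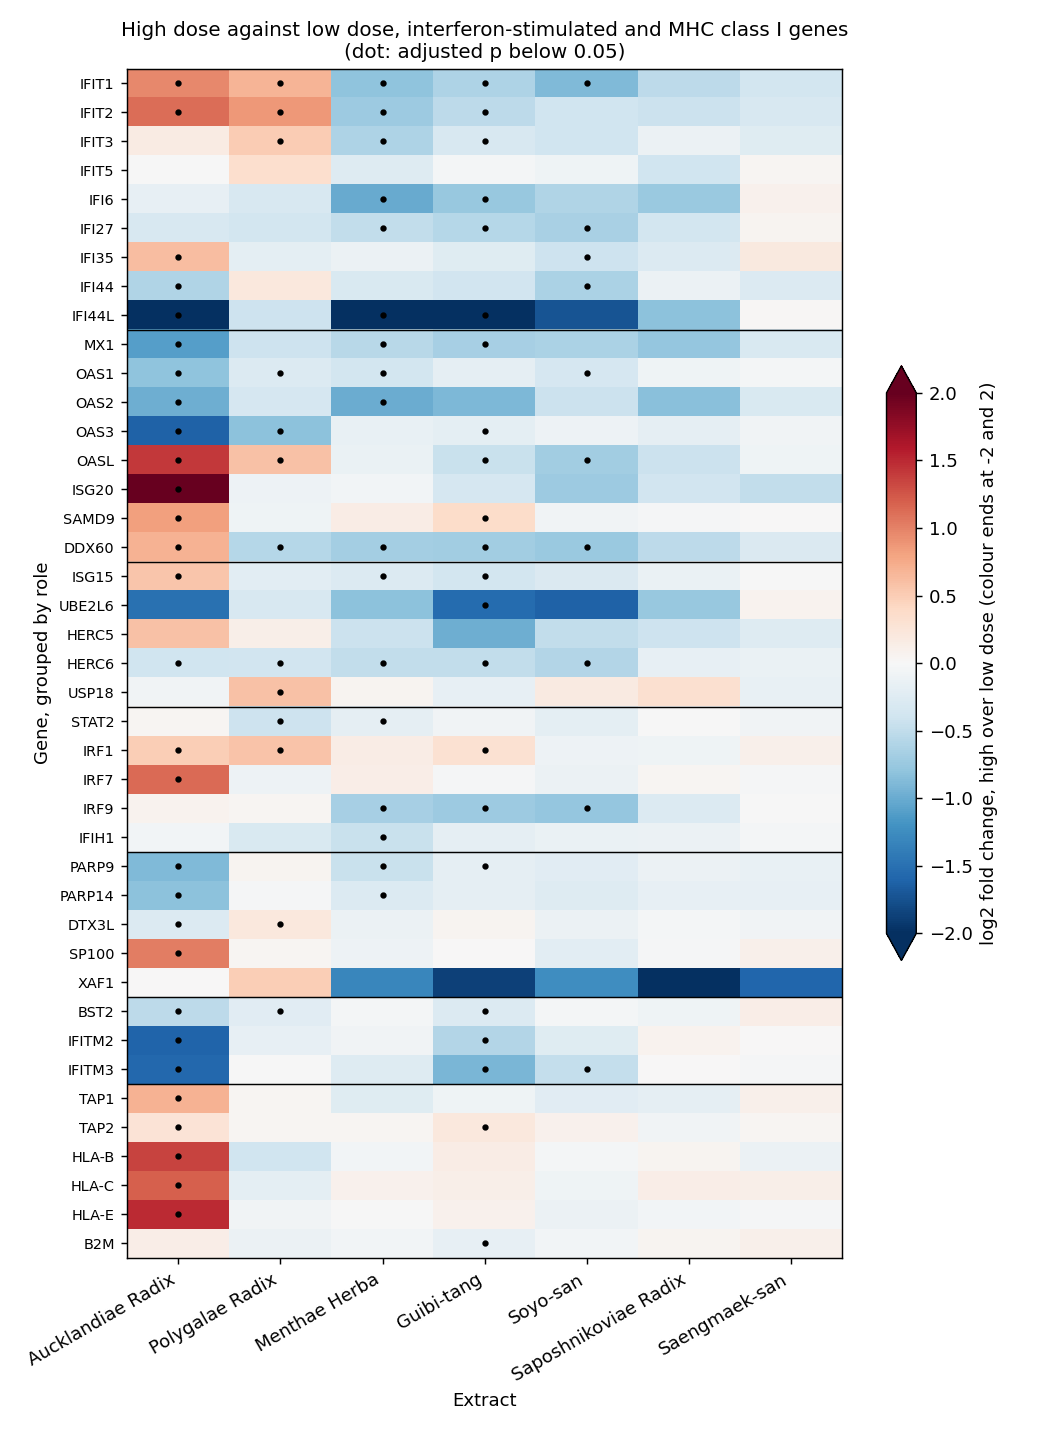
Colour gives the log2 fold change of the high over the low dose for the 41 tested genes (rows, grouped by role) and 7 extracts (columns); dots mark adjusted p below 0.05. Blue columns for Menthae Herba, Guibi-tang and Soyo-san hold 17, 19 and 10 genes called lower, whereas Aucklandiae Radix has 16 called higher and 13 lower.

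**Figure D3:**
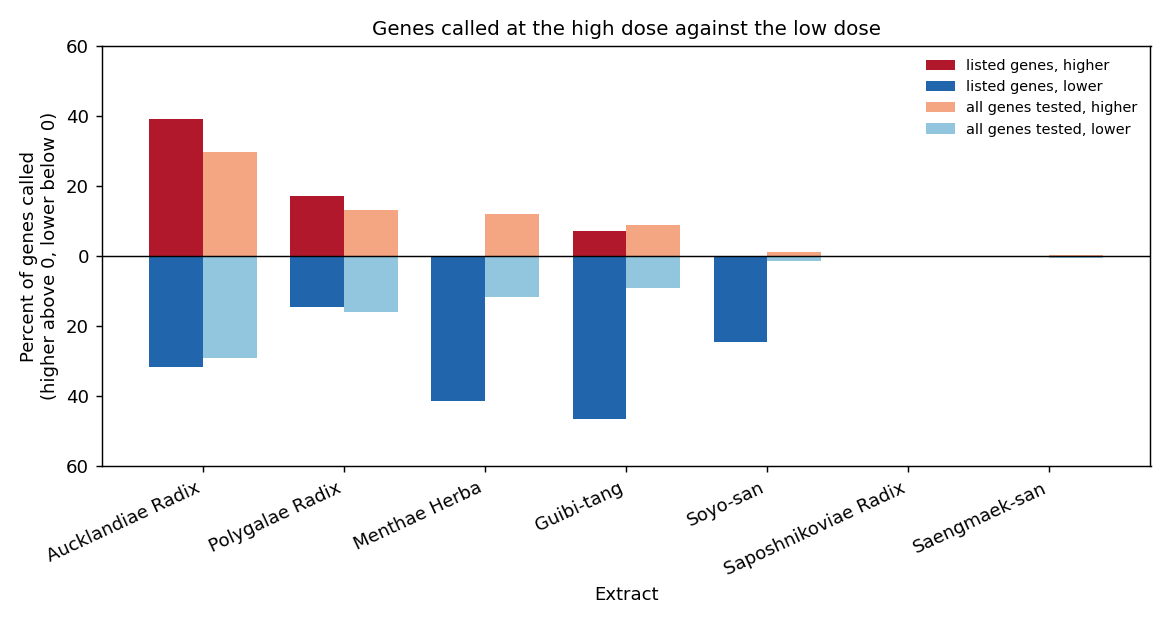
Bars give the percent of the 41 tested members (dark) and of all 16978 tested genes (light) called higher (above 0) or lower (below 0) at the high against the low dose of each extract. The members' lower bars reach further below 0 than those of all genes with Menthae Herba, Guibi-tang and Soyo-san, where 11.6%, 9.08% and 1.38% of all genes were called lower.

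Among the transcription factors, IRF9, the DNA-binding subunit of the complex that it forms with STAT2, was lower at the high dose with 3 extracts. With Menthae Herba it had 4.64, 5.15 and 5.48 CPM at the high dose, against 8.86, 7.32 and 8.13 CPM at the low dose. Under Guibi-tang it had 5.11, 5.37 and 5.53 CPM, against 10.5, 7.82 and 8.25 CPM. With Soyo-san it had 5.00 and 6.79 CPM, against 9.74 and 10.4 CPM. In none of the 3 extracts did high-dose and low-dose libraries overlap. The log2 changes were -0.67 ± 0.15 (SE) with an adjusted p of 0.000581, -0.73 ± 0.15 with 0.00029 and -0.77 ± 0.17 with 0.00598, in the same order (edgeR's quasi-likelihood test). The Soyo-san call was lost without high replicate 1 (adjusted p = 0.271) and without low replicate 2 (adjusted p = 0.0999). With Aucklandiae Radix the same gene had 8.54 and 7.64 CPM at the high dose, against 7.64 and 7.86 CPM at the low dose, and was not called.

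IRF1, a transcription factor that binds ISRE-like sequences and drives MHC class I genes, moved in the other direction. It had 37.3 and 36.4 CPM at the high dose of Aucklandiae Radix, against 26.1 and 26.3 CPM at its low dose. At the high dose of Polygalae Radix it had 36.6 and 34.4 CPM, against 23.6 and 24.2 CPM, and at the high dose of Guibi-tang 31.1, 37.2 and 33.7 CPM, against 26.0, 27.5 and 29.2 CPM. All high-dose libraries of these 3 extracts lay above their low-dose libraries. The log2 changes were 0.49 ± 0.07 (adjusted p = 1.86e-08), 0.57 ± 0.07 (adjusted p = 7.11e-09) and 0.30 ± 0.05 (adjusted p = 4.75e-05) by edgeR's test. IRF1 was thus called higher with Guibi-tang, where IRF9 was called lower. IRF7, which amplifies interferon production, had 56 and 53.5 CPM at the high dose of Aucklandiae Radix, against 24.8 and 25.0 CPM at the low dose, and was called with no other extract. STAT2 fell with Polygalae Radix, with 14.7 and 14.3 CPM at the high dose, against 19.2 and 19.2 CPM at the low dose (log2 change -0.41 ± 0.08, adjusted p = 0.000129 by edgeR). The RNA sensor IFIH1 (MDA5) fell with Menthae Herba, by 0.44 ± 0.11 on the log2 scale, from the edgeR fit with an adjusted p of 0.00252.

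The IFIT proteins bind viral RNA or block translation, and 3 of the 4 IFIT genes were called both higher and lower, depending on the extract. IFIT1 had 6.61 and 7.90 CPM at the high dose of Aucklandiae Radix, against 3.94 and 3.48 CPM at the low dose. With Polygalae Radix it had 5.47 and 6.12 CPM at the high dose, against 3.39 and 3.83 CPM. With Menthae Herba it had 2.24, 2.73 and 2.31 CPM at the high dose, against 4.78, 4.18 and 3.77 CPM. High-dose libraries thus lay entirely above the low-dose libraries with the first 2 herbs and entirely below them with Menthae Herba. With Guibi-tang IFIT1 had 2.66, 3.09 and 2.44 CPM at the high dose, against 5.16, 3.82 and 3.61 CPM, and with Soyo-san 2.76 and 2.75 CPM, against 5.09 and 5.04 CPM. The log2 changes by edgeR were 0.96 ± 0.19 (adjusted p = 2.14e-05), 0.68 ± 0.20 (adjusted p = 0.00691), -0.80 ± 0.17 (adjusted p = 0.000425), -0.62 ± 0.17 (adjusted p = 0.00849) and -0.88 ± 0.20 (adjusted p = 0.00794) for Aucklandiae Radix, Polygalae Radix, Menthae Herba, Guibi-tang and Soyo-san. The Polygalae Radix call was lost without low replicate 2 (adjusted p = 0.0738) or high replicate 3 (0.0672). The Soyo-san call was lost without any 1 of its 4 libraries, with adjusted p between 0.0647 and 0.106.

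IFIT2 had the same signs. It had 8.03 and 8.72 CPM at the high dose of Aucklandiae Radix, against 3.74 and 3.93 CPM at the low dose, and 7.97 and 8.45 CPM at the high dose of Polygalae Radix, against 3.85 and 5.17 CPM. With Menthae Herba it had 2.81, 2.76 and 2.7 CPM at the high dose, against 4.78, 4.23 and 4.72 CPM. No high-dose library overlapped its low-dose group, and the log2 changes were 1.12 ± 0.17, 0.86 ± 0.17 and -0.73 ± 0.15 in that order, with adjusted p of 1.33e-07, 6.69e-05 and 0.000243 by edgeR's test. With Guibi-tang it was lower, with a log2 change of -0.53 ± 0.16 (adjusted p = 0.0129 by edgeR). IFIT3 was called higher with Polygalae Radix (0.51 ± 0.11) and lower with Menthae Herba (-0.61 ± 0.10) and Guibi-tang (-0.32 ± 0.10). IFIT5 was called with no extract.

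Of the IFI genes, IFI6, which acts at the mitochondrion and the endoplasmic reticulum, had 2.00, 1.93 and 1.87 CPM at the high dose of Menthae Herba, against 4.01, 3.64 and 3.96 CPM at the low dose. Its 3 high-dose libraries were close together and about 1 log2 unit below the low dose (-1.0 ± 0.19, adjusted p = 6.24e-05 by edgeR). With Guibi-tang it had 1.75, 2.69 and 1.71 CPM, against 3.83, 3.17 and 3.41 CPM (log2 change -0.75 ± 0.19, adjusted p = 0.00387 by edgeR). IFI27 was lower with the same 3 extracts as IRF9. With Soyo-san it had 5.68 and 6.24 CPM at the high dose, against 9.21 and 9.45 CPM at the low dose, a call that was lost without any 1 of the 4 libraries (adjusted p between 0.0975 and 0.329). IFI35, a partner of NMI, had a log2 change of 0.61 ± 0.10 with Aucklandiae Radix and of -0.42 ± 0.11 with Soyo-san, and both were called by edgeR. IFI44 was called lower with Aucklandiae Radix (-0.60 ± 0.20) and Soyo-san (-0.64 ± 0.18).

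**Figure D4:**
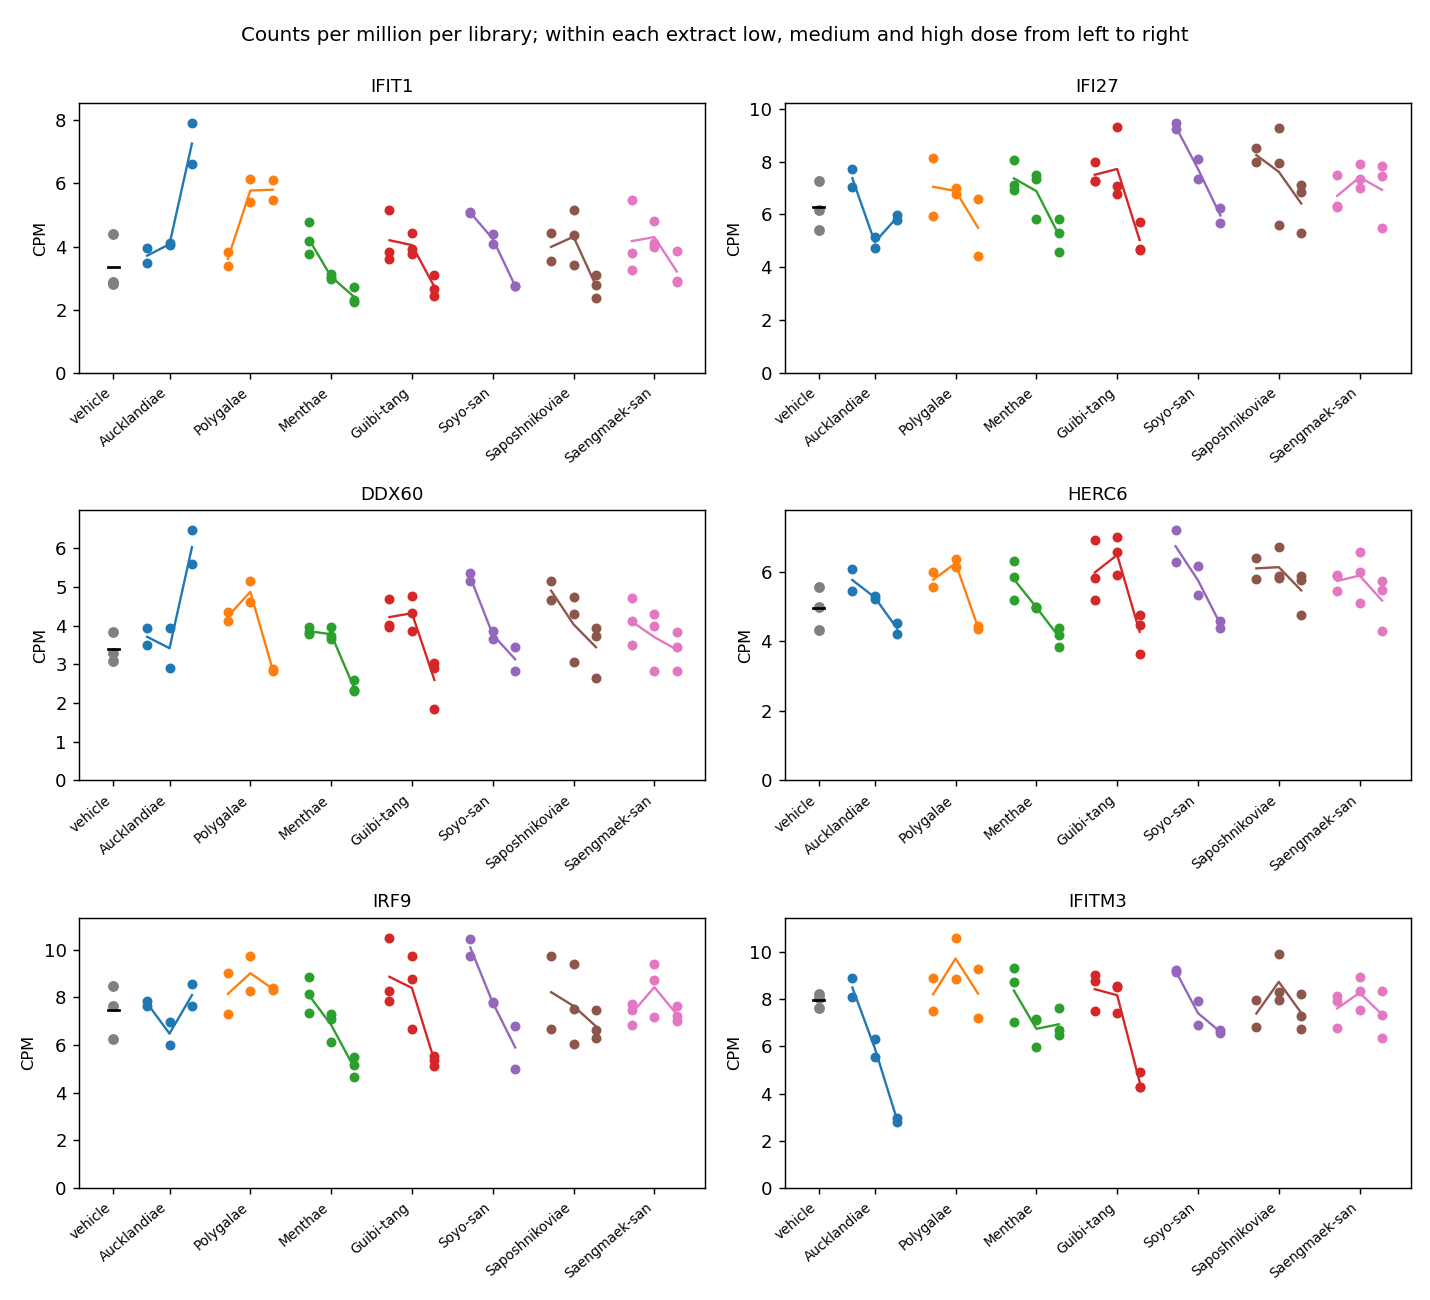
Points are libraries and lines join group means in CPM, with the vehicle at the left and low, medium and high dose from left to right within each of 7 extracts. IFIT1 climbs to 6.61 and 7.90 CPM at the high dose of Aucklandiae Radix, while IRF9 and IFI27 end lower at the high dose of Menthae Herba, Guibi-tang and Soyo-san.

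Among the antiviral enzymes, ISG20, an exonuclease that degrades RNA, had the largest rise of any member with at least 1 CPM. It had 15.3 and 13.3 CPM at the high dose of Aucklandiae Radix, against 2.64 and 2.83 CPM at the low dose, and 2.45 and 2.02 CPM at the medium dose. Only the high dose stood out, with a log2 change of 2.38 ± 0.18 (adjusted p = 1.51e-15 by edgeR). In the other 6 extracts tested, ISG20 was not called, with log2 changes of -0.72 to -0.05. OASL, a relative of the OAS enzymes without their enzymatic activity, had 12.2 and 11.3 CPM at the high dose of Aucklandiae Radix, against 4.43 and 4.42 CPM at the low dose. With Polygalae Radix it had 7.56 and 7.56 CPM, against 5.22 and 4.82 CPM. With Soyo-san it had 3.28 and 4.20 CPM, against 6.25 and 5.85 CPM. The log2 changes were 1.41 ± 0.13, 0.59 ± 0.14 and -0.69 ± 0.14, with adjusted p of 1.15e-12, 0.000856 and 0.0025 by edgeR; the last call was lost without high replicate 1 (0.186) or low replicate 1 (0.0653) of Soyo-san. OAS3, one of the OAS enzymes, which make the second messenger that activates RNase L, moved the opposite way to OASL with both herbs. It had 26.4 and 31.5 CPM at the high dose of Aucklandiae Radix, against 88.3 and 89.3 CPM at the low dose. With Polygalae Radix it had 53.4 and 50.2 CPM at the high dose, against 89.5 and 93.3 CPM. Both drops were far outside the replicate spread, with log2 changes of -1.62 ± 0.08 (adjusted p = 1.35e-21) and -0.82 ± 0.08 (adjusted p = 8.69e-12) by edgeR's test.

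OAS1 was called lower with 4 of 7 extracts. It had 9.56 and 11.6 CPM at the high dose of Aucklandiae Radix, against 18.3 and 18.6 CPM at the low dose, and 15.3, 14.4 and 16.5 CPM at the high dose of Menthae Herba, against 18.8, 19.6 and 21.2 CPM. The log2 changes were -0.81 ± 0.11 (adjusted p = 8.35e-09) and -0.37 ± 0.08 (adjusted p = 0.000484) by edgeR. With Polygalae Radix the change was -0.28 ± 0.10 and with Soyo-san -0.33 ± 0.10. Those 2 calls were not stable: the first was lost without low replicate 2 (adjusted p = 0.0569), high replicate 3 (0.281) or low replicate 3 (0.202), and the second without any 1 of the 4 libraries (0.129 to 0.382). MX1, a GTPase that traps viral nucleocapsids, had 1.42 and 2.26 CPM at the high dose of Aucklandiae Radix, against 3.46 and 4.34 CPM at the low dose (log2 change -1.11 ± 0.24, adjusted p = 0.000139 by edgeR). Under Guibi-tang it had 2.15, 2.60 and 2.77 CPM, against 4.69, 3.93 and 3.33 CPM (-0.67 ± 0.19), a call that was lost without high replicate 1 (adjusted p = 0.0649) or low replicate 1 (0.0852). OAS2 was called lower with Aucklandiae Radix (-0.97 ± 0.39) and Menthae Herba (-0.99 ± 0.31). The first call was lost without any 1 of its 4 libraries (adjusted p between 0.0528 and 0.192). The second was lost without high replicate 1 (0.0674), low replicate 1 (0.0714) or high replicate 3 (0.0631).

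DDX60, a helicase linked to RNA sensing, was called in 5 of 7 extracts and in both directions. It had 6.46 and 5.60 CPM at the high dose of Aucklandiae Radix, against 3.50 and 3.93 CPM at the low dose. With Menthae Herba it had 2.61, 2.31 and 2.34 CPM at the high dose, against 3.77, 3.95 and 3.85 CPM. With Guibi-tang it had 2.91, 3.05 and 1.84 CPM, against 4.01, 4.69 and 3.97 CPM. High-dose and low-dose libraries did not overlap in any of these extracts, and the log2 changes were 0.70 ± 0.18 (adjusted p = 0.000914), -0.67 ± 0.17 (adjusted p = 0.00193) and -0.70 ± 0.17 (adjusted p = 0.00174) by edgeR. Polygalae Radix gave 2.83 and 2.89 CPM at the high dose, against 4.35 and 4.13 CPM (-0.57 ± 0.20), and Soyo-san 3.44 and 2.83 CPM, against 5.36 and 5.15 CPM (-0.75 ± 0.19). Both of these calls were lost without any 1 of the 4 libraries of the extract, with adjusted p between 0.0812 and 0.131 for Polygalae Radix and between 0.0614 and 0.221 for Soyo-san. SAMD9, an antiviral factor of the cytosol, had 109 and 117 CPM at the high dose of Aucklandiae Radix, against 63.6 and 63.6 CPM at the low dose (log2 change 0.83 ± 0.15). Under Guibi-tang it had 75.1, 68.8 and 73.8 CPM, against 61.3, 60.9 and 46.0 CPM (0.37 ± 0.12), a call lost without high replicate 1 (adjusted p = 0.0928), high replicate 3 (0.0868) or low replicate 3 (0.222).

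In the ISG15 system, HERC6, a ligase of the HERC family, was called lower with 5 of 7 extracts, more than any other member, and its log2 change was below 0 with all 7. The changes were small. It had 4.40, 3.83 and 4.18 CPM at the high dose of Menthae Herba, against 5.20, 5.86 and 6.31 CPM at the low dose, and 4.46, 3.63 and 4.75 CPM at the high dose of Guibi-tang, against 6.91, 5.84 and 5.20 CPM. The log2 changes were -0.49 ± 0.11 (adjusted p = 0.00116) and -0.49 ± 0.12 (adjusted p = 0.00179) by edgeR. With Soyo-san (-0.59 ± 0.14) the call was lost without high replicate 1 (0.145) or low replicate 2 (0.214). With Aucklandiae Radix (-0.40 ± 0.14) it was lost without low replicate 2 (adjusted p = 0.139) or high replicate 3 (0.0973), and with Polygalae Radix (-0.39 ± 0.14) without any 1 library (0.0745 to 0.203). ISG15, the ubiquitin-like modifier itself, had 28.9 and 26.1 CPM at the high dose of Aucklandiae Radix, against 18.7 and 18.7 CPM at the low dose. With Guibi-tang it had 16.2, 16.4 and 16.2 CPM at the high dose, against 21.5, 19.1 and 22.3 CPM. It was called higher with the first (log2 change 0.56 ± 0.10) and lower with the second (-0.36 ± 0.08) and with Menthae Herba (-0.27 ± 0.08). USP18, which removes ISG15 and blocks the interferon receptor, was called higher with Polygalae Radix only among the 7 extracts: 4.03 and 3.23 CPM at the high dose, against 2.20 and 2.63 CPM (0.58 ± 0.21). That call was lost without high replicate 2 (adjusted p = 0.288), low replicate 2 (0.215) or low replicate 3 (0.0526). HERC5, the ligase that attaches ISG15, was called with no extract.

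Among the PARP and nuclear factor genes, PARP9 and its binding partner DTX3L, which start next to each other, did not move alike. With Aucklandiae Radix PARP9 had 17.1 and 16.7 CPM at the high dose, against 30.2 and 32.0 CPM at the low dose (log2 change -0.88 ± 0.08, adjusted p = 1.44e-12 by edgeR), while DTX3L changed by -0.28 ± 0.07. PARP14 had 65.9 and 72.7 CPM at the high dose, against 121 and 122 CPM (-0.81 ± 0.10, adjusted p = 2.29e-09). SP100, a scaffold of nuclear bodies, went the other way, with 50.9 and 52.1 CPM at the high dose, against 25.2 and 25.5 CPM (1.02 ± 0.07). With Menthae Herba PARP9 had 25.5, 24.5 and 25.6 CPM at the high dose, against 35.6, 33.7 and 33.1 CPM (-0.44 ± 0.06, adjusted p = 7.48e-07 by edgeR).

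The membrane restriction factors fell furthest with Aucklandiae Radix. IFITM3, which stops viruses from fusing with endosomes, had 2.96 and 2.78 CPM at the high dose, against 8.09 and 8.91 CPM at the low dose. Under Guibi-tang it had 4.26, 4.93 and 4.29 CPM at the high dose, against 8.78, 9.01 and 7.5 CPM. The groups did not overlap, and the log2 changes were -1.57 ± 0.16 (adjusted p = 1.86e-11) and -0.91 ± 0.12 (adjusted p = 2.53e-07) by edgeR. IFITM2 had 8.47 and 8.50 CPM at the high dose of Aucklandiae Radix, against 26.6 and 24.9 CPM, and 18.8, 16.6 and 18.2 CPM at the high dose of Guibi-tang, against 30.3, 24.1 and 26.0 CPM. Its log2 changes were -1.60 ± 0.12 and -0.59 ± 0.09, both called. BST2 was called lower with Aucklandiae Radix (-0.52 ± 0.09), Polygalae Radix (-0.23 ± 0.09) and Guibi-tang (-0.28 ± 0.07). With Menthae Herba, where 17 members fell, none of the 3 tested membrane factors was called.

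MHC class I genes changed mainly with Aucklandiae Radix, where 5 of 6 rose. HLA-E, the ligand of NK cell receptors, had 158 and 156 CPM at the high dose, against 55.6 and 55.6 CPM at the low dose. HLA-C had 102 and 94.6 CPM at the high dose, against 42.7 and 43.2 CPM, and HLA-B 9.56 and 9.5 CPM, against 3.25 and 4.23 CPM. All 3 heavy chain genes were thus more than 2-fold higher, with log2 changes of 1.5 ± 0.06 (adjusted p = 1.04e-24), 1.19 ± 0.07 (adjusted p = 1.04e-18) and 1.34 ± 0.18 (adjusted p = 2.81e-08) by edgeR. The peptide pump rose less: TAP1 had 9.13 and 8.55 CPM, against 5.33 and 5.63 CPM (0.69 ± 0.13), and TAP2 47.2 and 47.8 CPM, against 38.3 and 40.6 CPM (0.27 ± 0.06). B2M, the shared light chain and the most abundant member, had 311 and 281 CPM at the high dose, against 270 and 270 CPM at the low dose. It was not called (0.13 ± 0.07), although it was without high replicate 3 (0.21, adjusted p = 0.031). With the other 6 extracts none of these 3 HLA genes was called at the high against the low dose. TAP2 had 46.6, 43.5 and 46.4 CPM at the high dose of Guibi-tang, against 40.5, 39.3 and 37.6 CPM (0.22 ± 0.05, adjusted p = 0.00141 by edgeR), and B2M was called lower there (-0.16 ± 0.06).

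**Figure D5:**
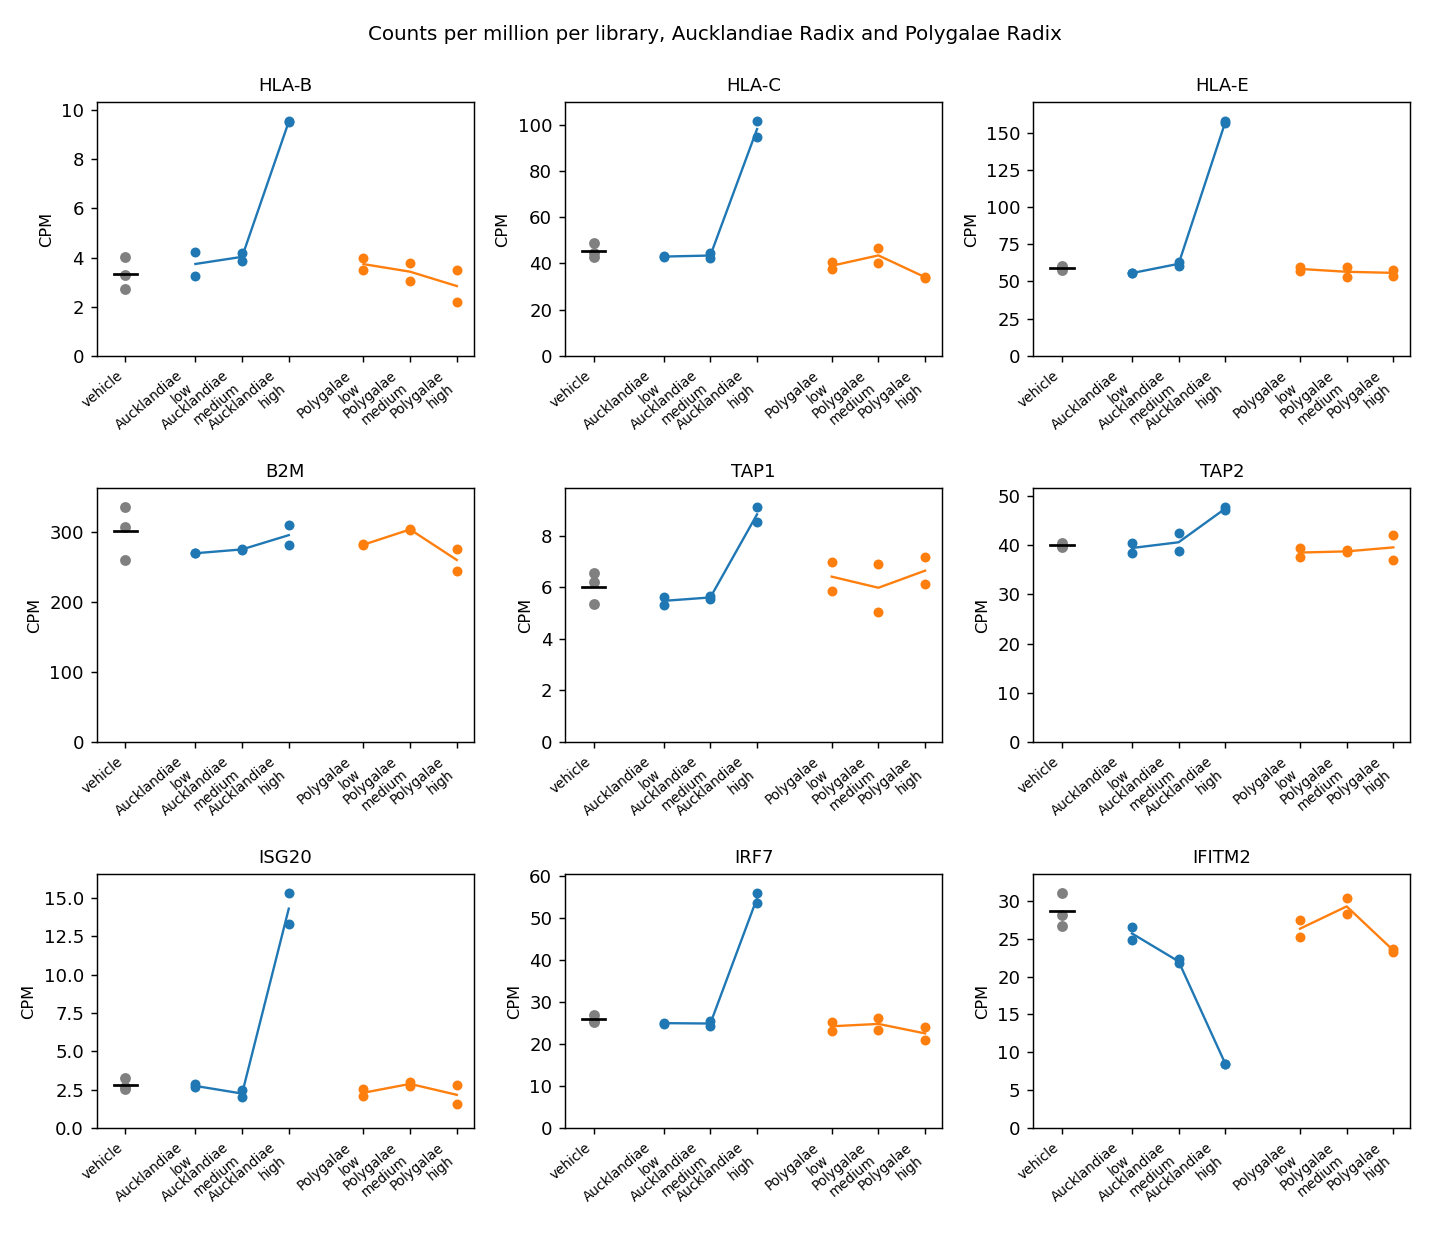
Points are libraries and lines join group means in CPM for the 6 MHC class I genes and for ISG20, IRF7 and IFITM2, with the vehicle at the left and doses from low to high. HLA-B, HLA-C, HLA-E, ISG20 and IRF7 stand out at the high dose of Aucklandiae Radix, and IFITM2 drops to 8.47 and 8.50 CPM there.

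Markers of other cell types moved with the same comparison. The 3 blood cell markers above 1 CPM were CD68, ITGAM and CD14, and the summed level of the list was 8.58 to 58.0 CPM over the groups, highest at the high dose of Aucklandiae Radix, where CD68 had a log2 change of 2.98 and CD14 one of -1.15. The leukocyte gene PTPRC had at most 0.123 CPM and the T cell gene CD3E at most 0.0443 CPM in any library. The summed fibroblast and endothelium list ran over groups between 2.12 and 12.1 CPM, and was also highest there. Epithelial markers did not move together at that dose, with 5 of 12 called higher (KRT20 by 1.52) and 5 lower (GPA33 by -3.79). Fewer cells of a type and less RNA per cell cannot be told apart in bulk libraries, and the part of these changes in the members' results was not tested.

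Overlaps between the extracts were partial. In all, 5 members fell with each of Menthae Herba, Guibi-tang and Soyo-san: DDX60, HERC6, IFI27, IFIT1 and IRF9. Guibi-tang and Menthae Herba shared 12 lower members, which is 63.2% of the 19 of Guibi-tang and 70.6% of the 17 of Menthae Herba. Over all genes tested, 857 were lower with both, which is 55.6% of those lower with Guibi-tang and 43.7% of those lower with Menthae Herba. Aucklandiae Radix shared 8 lower members with Guibi-tang (61.5% of its 13 and 42.1% of the 19 of Guibi-tang), and all 3 members that rose with Guibi-tang (IRF1, SAMD9 and TAP2) also rose with Aucklandiae Radix. Those shares stand beside 22.6% and 72.6% for all genes lower with both, and 76.6% of all genes that rose with Guibi-tang also rose with Aucklandiae Radix. In total 8 members were called higher with 1 extract and lower with another: DDX60, DTX3L, IFI35, IFIT1, IFIT2, IFIT3, ISG15 and OASL. HERC5, IFIT5 and XAF1 were called with none. For the 5 members lower with 3 extracts and the 8 called in both directions, no count over all genes stands beside them. Those counts are therefore not set against a background.

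Other genes of the pathway, listed by role, were counted in the same high-against-low comparisons, in which 58.7% of all genes were called with Aucklandiae Radix, 29.4% with Polygalae Radix, 23.5% with Menthae Herba, 17.9% with Guibi-tang and 2.49% with Soyo-san. Of 16 tested receptors, kinases and regulators, Aucklandiae Radix had 11 higher and 3 lower, among them the interferon gamma receptor chains IFNGR1 (0.89 ± 0.05) and IFNGR2 (0.64 ± 0.09). With Polygalae Radix 1 was higher and 3 were lower, including the kinase JAK1 (-0.61 ± 0.05). The counts were 4 and 4 with Menthae Herba, 2 and 2 with Guibi-tang, and none with Soyo-san. Of 11 nucleic acid sensing genes, Aucklandiae Radix had 4 higher, such as the adaptor TICAM1 (1.59 ± 0.12), and 4 lower, such as the RNA receptor TLR3 (-2.55 ± 0.24); Menthae Herba had 5 lower, such as the RIG-I relative DHX58 (-0.78 ± 0.16). Of 32 other interferon-stimulated genes, Aucklandiae Radix had 7 higher and 8 lower, with DDX60L (2.57 ± 0.11) and the GTPase GBP2 (-1.68 ± 0.10) at either side; these 15 are 46.9% of the list, under the share of all genes. Menthae Herba had 2 higher and 9 lower, Guibi-tang 2 and 7, Polygalae Radix 8 and 5, and Soyo-san 0 and 1. Of 15 other antigen presentation genes, Aucklandiae Radix had 8 higher and 6 lower: HLA-F (1.63 ± 0.24) was higher, and the immunoproteasome subunit PSMB8 (-1.16 ± 0.15) was lower. Polygalae Radix had 0 higher and 7 lower, including the chaperone PDIA3 (-0.73 ± 0.05). Of 9 interferon genes only IFNE had enough counts to be tested, and it was not called with any of the 7 extracts.

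The difference between 2 extracts was tested directly for those that share a set number. The high-minus-low change of Aucklandiae Radix minus that of Polygalae Radix was called for 24 members, 15 above and 9 below 0 (58.5%, against 46.6% of all genes). All 6 MHC class I genes were among the 15, from B2M (0.25 ± 0.10) and TAP2 (0.23 ± 0.09) to HLA-C (1.39 ± 0.10), HLA-E (1.56 ± 0.09) and HLA-B (1.75 ± 0.29). HLA-E had 158 and 156 CPM at the high dose of Aucklandiae Radix, while at the high dose of Polygalae Radix it had 57.5 and 54.0 CPM. ISG20 differed by 2.48 ± 0.29 (adjusted p = 1.34e-09 by edgeR) and DDX60, which rose with the first herb and fell with the second, by 1.27 ± 0.27. IFIT1 (0.28 ± 0.27) and IFIT2 (0.26 ± 0.24), which rose with both, did not differ by the test, with adjusted p of 0.426 and 0.387 by edgeR, which does not show that the herbs act alike on them. On the other side stood IFITM3 (-1.56 ± 0.21), IFITM2 (-1.43 ± 0.16), PARP9 (-0.93 ± 0.11) and OAS3 (-0.80 ± 0.11).

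For Guibi-tang minus Saengmaek-san 7 members differed, all below 0 (17.1%, against 7.21% of all genes): IFITM3 (-0.88 ± 0.17), IFI6 (-0.83 ± 0.27), IRF9 (-0.72 ± 0.21), IFITM2 (-0.59 ± 0.12), IFI35 (-0.42 ± 0.13), BST2 (-0.42 ± 0.10) and B2M (-0.26 ± 0.08). IFITM3 had 4.26, 4.93 and 4.29 CPM at the high dose of Guibi-tang, while Saengmaek-san gave 7.33, 6.38 and 8.36 CPM. The count was 3 to 8 when each of the 12 libraries was left out; it was 3 without Saengmaek-san high replicate 3 and 4 without each of Saengmaek-san high replicate 1, Saengmaek-san low replicate 3, Guibi-tang high replicate 2 and Guibi-tang low replicate 3. For Menthae Herba minus Saposhnikoviae Radix, 1 member differed (2.44%, against 3.59% of all genes), PARP9 with -0.32 ± 0.10. That call was lost (0 called) without any of high replicate 1, high replicate 3, low replicate 1 and low replicate 3 of either herb. So 17 members fell with Menthae Herba and none was called with Saposhnikoviae Radix, yet for 16 of the 17 the difference itself was not called. IRF9, for example, had 4.64, 5.15 and 5.48 CPM at the high dose of Menthae Herba, and 6.27, 7.45 and 6.61 CPM at the high dose of Saposhnikoviae Radix.

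At the medium dose against the low dose, few members were called. Shares of all genes given beside them are for calls in either direction. With Polygalae Radix 3 were higher (4.95% of all genes were called): IFIT1 had 6.14 and 5.40 CPM at the medium dose, against 3.39 and 3.83 CPM at the low dose (0.68 ± 0.20), IFIT3 13.3 and 11.9 CPM, against 9.20 and 8.87 CPM (0.48 ± 0.11), and IRF1 28.5 and 29.96 CPM, against 23.6 and 24.2 CPM (0.29 ± 0.07). The IFIT1 rise was as large at the medium as at the high dose. The count was 2 without medium replicate 3 and 1 without medium replicate 2, low replicate 2 or low replicate 3. With Aucklandiae Radix, whose high dose moved 29 members, only IFITM3 was called at the medium dose (2.6% of all genes were called), with 6.32 and 5.55 CPM, against 8.09 and 8.91 CPM (-0.52 ± 0.14); without any 1 of the 4 libraries it was not called. With the other 5 extracts no member was called at the medium dose by edgeR, where 0.0294%, 0.118%, 0%, 0% and 0% of all genes were called with Menthae Herba, Guibi-tang, Soyo-san, Saposhnikoviae Radix and Saengmaek-san. An unadjusted p under 0.05 was seen for 5, 2, 8, 3 and 2 members in that order. These counts have no share of all genes at the same threshold beside them and are not read as changes.

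The same 3 vehicle libraries serve each comparison with the vehicle, so their values are set side by side. Shares of all genes in brackets are for calls in either direction. At the high dose Aucklandiae Radix had 17 members higher and 13 lower than the vehicle (62% of all genes were called), Polygalae Radix 12 and 8 (36.5%), Guibi-tang 3 and 11 (29.4%), Menthae Herba 1 and 11 (28.2%), Soyo-san 0 and 4 (17.7%), Saposhnikoviae Radix 2 and 1 (10.2%), and Saengmaek-san 0 and 1 (12%). Without high replicate 3 the Polygalae Radix count of 20 was 12. The Soyo-san count of 4 was 0 to 4, and that of Saposhnikoviae Radix 0 to 4, when libraries of the extract or the vehicle were left out in turn. IFIT2 had 7.97 and 8.45 CPM at the high dose of Polygalae Radix and 8.03 and 8.72 CPM at that of Aucklandiae Radix, against 2.87, 4.40 and 3.61 CPM in vehicle libraries. Both herbs thus stood above every vehicle library, with log2 changes of 1.20 ± 0.15 and 1.23 ± 0.15. HLA-C had 33.9 and 34.2 CPM at the high dose of Polygalae Radix, against 42.7, 44.7 and 48.7 CPM in vehicle libraries (-0.41 ± 0.07).

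At the low dose some members stood above the vehicle. Shares of all genes in brackets are for calls in either direction. At the low dose of Soyo-san and Saposhnikoviae Radix, 4.44% and 5.11% of all genes were called higher than the vehicle. Soyo-san had 10 members higher and none lower (9.8% of all genes were called), Saposhnikoviae Radix 6 and 0 (11.5%), Polygalae Radix 3 and 2 (9.98%), Saengmaek-san 2 and 4 (18%), Menthae Herba 2 and 0 (9.45%), and Guibi-tang 1 and 0 (6.05%), as did Aucklandiae Radix (4.97%). IFIT3 was called higher at the low dose of all 7 extracts tested, with log2 changes of 0.30 to 0.47; its vehicle libraries had 5.87, 7.09 and 6.71 CPM, and the low-dose libraries 6.77 to 9.94 CPM. The 7 calls share the same 3 vehicle libraries. IFIT3 was the sole called member with Aucklandiae Radix and Guibi-tang, and no member was called higher there without vehicle replicate 1 or 3. The same held without low replicate 2 or 3 of Aucklandiae Radix, and without low replicate 1 or 2 of Guibi-tang. With the outlying library kept, no member was called at the low dose of any extract except Saposhnikoviae Radix, and with DESeq2 none was with Aucklandiae Radix. Soyo-san shows what this does to the comparisons: IFIT1 had 2.76 and 2.75 CPM at the high dose, 5.09 and 5.04 CPM at the low dose, and 2.87, 4.40 and 2.80 CPM with the vehicle. IFI27 had 5.68 and 6.24 CPM at the high dose of Soyo-san, 9.21 and 9.45 CPM at the low dose, and 7.25, 6.18 and 5.42 CPM with the vehicle. Both were thus lower at the high than at the low dose, while the high dose itself was not called against the vehicle. The same held for all other members called lower with Soyo-san: IFI35, IFI44, OAS1, OASL, DDX60, HERC6, IRF9 and IFITM3. This was also so at the high dose of Guibi-tang for IFIT1, IFIT2, IFIT3, IFI27, IFI44L, OASL, DDX60, UBE2L6, HERC6 and PARP9. By contrast, IFI6, MX1, OAS3, ISG15, IRF9, BST2, IFITM2, IFITM3 and B2M were called lower there against both low dose and vehicle. The Soyo-san count of 10 was 1 without low replicate 2, 2 without low replicate 1 and 5 without vehicle replicate 3. The Saposhnikoviae Radix and Saengmaek-san counts of 6 were 0 to 5, at 0 without Saposhnikoviae Radix low replicate 1 and without vehicle replicate 3.

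At the medium dose against the vehicle 9 members were higher with Polygalae Radix, from PARP9 (0.29) to IFIT3 (0.95). There 10.2% of all genes were called in either direction and 4.99% were called higher. The shares in brackets below are for either direction. Aucklandiae Radix had 1 higher and 3 lower (13.6%), Guibi-tang 2 higher (11%), Saengmaek-san 2 higher (11.4%), Saposhnikoviae Radix 1 higher (3.69%), Menthae Herba 1 lower (10.1%), and Soyo-san none (8.55%; 3 at an unadjusted p under 0.05, and none by DESeq2). The Polygalae Radix count was 5 without medium replicate 3. For the 3 Soyo-san members at an unadjusted p under 0.05, no share of all genes at that threshold is given.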

How the data were processed

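RNA-seq libraries of HT29 cells were made with a directional mRNA kit and sequenced on an MGI instrument, per the labels' protocols. The values are expected counts per gene deposited by the authors. The submitters' processing notes name FastQC 0.11.9, Trim Galore 0.6.5, STAR 2.7.3a, RSEM 1.3.3 and hg38; the sources used here give neither annotation release nor strand setting. Symbols were matched from GENCODE 29 for 56558 of 60675 genes. Expected counts were rounded (10.041% of values were not whole), scaled by TMM and fitted with edgeR 4.0.16 (R 4.3.3, limma 3.58.1) in 1 quasi-likelihood model over 22 groups and 56 libraries, after filterByExpr left 16978 genes. A gene was called at a Benjamini-Hochberg adjusted p below 0.05; SE is the log2 change divided by the square root of its F value. CPM are TMM-scaled. The steps were tested on simulated data. Alternatives were DESeq2 1.42.0, RLE scaling, no filter, the outlying library kept, each library left out and replicate blocks. The members and gene lists were chosen with earlier results of these data known. Values per library were to be given for up to 5 rises and 5 falls per extract among called members of at least 1 CPM, for members called alike in 4 or more of 7 extracts, and for the MHC class I genes with Aucklandiae Radix; further values given beside these were chosen after they were seen. Motifs were searched in RefSeq promoters, with chr8 left out. Results for some genes of the other pathway lists are not reported here.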

Additional observations from a re-analysis of the deposited data

Results flagged for a closer look

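Results are given here because a test of the difference between 2 extracts of 1 set was passed, or because a library outside the fit stood apart. The high-minus-low change differed between Aucklandiae Radix and Polygalae Radix for 24 members by edgeR's quasi-likelihood test. Among the genes given with values, the difference on the log2 scale was below 0 for IFITM3 (-1.56), IFITM2 (-1.43), OAS3 (-0.80) and OAS1 (-0.53). It was above 0 for TAP2 (0.23), B2M (0.25), STAT2 (0.45), TAP1 (0.64), OASL (0.82), DDX60 (1.27), HLA-C (1.39), HLA-E (1.56), HLA-B (1.75) and ISG20 (2.48). Between Guibi-tang and Saengmaek-san 7 members differed, among them IFITM3 (-0.88), IFI6 (-0.83) and IRF9 (-0.72). Between Menthae Herba and Saposhnikoviae Radix 1 member differed.

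In the outlying library, labelled Saposhnikoviae Radix low replicate 2, 9 of the 37 members with a median of at least 1 CPM were at least 2-fold above every vehicle library, and 12 were at least 2-fold below. ISG15 had 269 CPM and BST2 243 CPM there, against 19.5, 21.2 and 19.2 CPM and 35.1, 41.1 and 41.1 CPM in vehicle libraries. IFIT2 had 0.251 CPM, against 2.87, 4.40 and 3.61 CPM. The share of all genes that far from the vehicle in this library was not computed, so the counts are not shown to be particular to the members. The library's low correlation with its group and low mitochondrial share stand beside these values, and their part in them was not tested.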

How the results depend on the processing

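The genes named at high against low dose kept their direction under RLE scaling, no filter, the outlying library kept, the set-and-number block, DESeq2 and each left-out library; the number-only block was not run for single genes. With the outlying library kept, called members at high against low dose numbered 14 (Saposhnikoviae Radix), 6 (Guibi-tang), 5 (Menthae Herba), 3 (Polygalae Radix) and 0 (Soyo-san). At medium against low dose they were 0, 0 and 10 for Polygalae Radix, Aucklandiae Radix and Saposhnikoviae Radix. At high dose against vehicle they were 8, 2, 0, 0, 3 and 0 for Polygalae Radix, Menthae Herba, Saposhnikoviae Radix, Saengmaek-san, Guibi-tang and Soyo-san. At medium dose against vehicle they were 2 for Polygalae Radix and 0 for the others except Soyo-san, and at low dose 12 for Saposhnikoviae Radix and 0 for the others. The differences had 14, 7 and 1 called members for Aucklandiae Radix minus Polygalae Radix, Menthae Herba minus Saposhnikoviae Radix and Guibi-tang minus Saengmaek-san. The cause was not tested.

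With DESeq2 the count was 6 for Soyo-san at high against low dose, 0 for Aucklandiae Radix and 4 for Menthae Herba at low dose against vehicle, and 2 for Menthae Herba and 4 for Guibi-tang at medium dose against vehicle. Without the filter it was 2 for Aucklandiae Radix and 2 for Saposhnikoviae Radix at medium against low dose and 4 for Saposhnikoviae Radix at high against low dose. Against vehicle it was 3, 6 and 2 at the low dose of Aucklandiae Radix, Menthae Herba and Guibi-tang, 2 at the medium dose of Menthae Herba, Saposhnikoviae Radix and Soyo-san, and 2 at the high dose of Saengmaek-san. The difference of Menthae Herba minus Saposhnikoviae Radix had 0 without the filter and 0 with RLE scaling.

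Same-numbered replicates deviated together (correlation over 0.1) in 4 of 17 pairs at high against low dose (2 of 28 with different numbers) and in 9 of 17 at medium against low dose (2 of 28). Not every pair passed, so the numbers were not taken to pair the samples overall; with Menthae Herba at medium against low dose all 3 passed, and the blocked count there was 0, as without the block. With set and number as a replicate block, called members at high against low dose numbered 30 (Aucklandiae Radix), 22 (Guibi-tang), 17 (Menthae Herba), 13 (Polygalae Radix) and 12 (Soyo-san). With number alone as the block, Menthae Herba had 2 at medium and 4 at low dose against vehicle.

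Leaving out each library in turn gave, at high against low dose, 27 to 29 (Aucklandiae Radix), 6 to 14 (Polygalae Radix), 13 to 17 (Menthae Herba), 0 to 1 (Saposhnikoviae Radix), 14 to 21 (Guibi-tang) and 0 to 4 (Soyo-san). At medium against low dose it gave 1 to 2 for Polygalae Radix, 0 to 0 for Aucklandiae Radix and 0 to 2 for Saposhnikoviae Radix. Against vehicle the ranges at low, medium and high dose were 0 to 6, 5 to 9 and 12 to 18 for Polygalae Radix, 0 to 2, 2 to 5 and 26 to 30 for Aucklandiae Radix, and 0 to 5, 0 to 2 and 8 to 11 for Menthae Herba. They were 0 to 5, 0 to 5 and 0 to 4 for Saposhnikoviae Radix, 0 to 5, 0 to 3 and 0 to 2 for Saengmaek-san, 0 to 2, 0 to 3 and 10 to 15 for Guibi-tang, and 1 to 11, 0 to 2 and 0 to 4 for Soyo-san. The differences ranged from 21 to 25 (Aucklandiae Radix minus Polygalae Radix), 0 to 1 (Menthae Herba minus Saposhnikoviae Radix) and 3 to 8 (Guibi-tang minus Saengmaek-san). With 2 libraries per dose, the lone library left is assumed to vary like the other groups. Members under 1 CPM rest on few reads.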

Other observations

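Okbyeongpung-san, with 1 library per dose, has no replicate check and no test. None of the 37 members with a median of at least 1 CPM was 2-fold or more away from every vehicle library at any of its doses. The median ratio to the vehicle mean was 1.152 at the low, 1.022 at the medium and 1.004 at the high dose. In that order, 25, 14 and 9 members lay above all 3 vehicle libraries, while 6, 9 and 11 lay below all 3. No share of all genes stands beside the counts in this paragraph, and these libraries are of another set than the vehicle. Of the 19 members called lower with Guibi-tang at high against low dose, 18 were lower and 1 was higher in the single high dose library than in the low dose library, beside 27 lower and 10 higher among the 37 members above. The next 4 genes were chosen after their values were seen. DDX60 had 3.26 CPM at the high dose, against 5.25 CPM at the low dose, and HERC6 had 4.32 CPM, against 6.94 CPM. IFI6 had 2.52 CPM at the high dose, against 4.35 CPM at the low dose, and IFITM3 had 6.25 CPM, against 9.20 CPM. B2M, also called lower with Guibi-tang, had 273 CPM at the high dose, against 257 CPM at the low dose.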
